A study of Mus musculus with 6 samples.

Results

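The transcription factors described here are the SOX trio of chondrocytes (Sox9, Sox5 and Sox6) together with Nkx3-2, Trps1, Foxa2 and Foxa3. They were measured in tibial cartilage of C57BL/6 mice on Agilent 1-colour expression arrays. Mutant mice (3 animals) were labelled ADAM10 flox/flox-Col2a1-Cre: they carried loxP-flanked Adam10 alleles and a Cre recombinase under the Col2a1 promoter, which is active in chondrocytes. The 3 other animals were labelled control, and their alleles, like the age of all animals, are not given in the labels. Members were every probe whose RefSeq accession belongs to 1 of the 7 genes, which gave 11 of the 35228 probes tested. Sox9, Sox6, Nkx3-2 and Foxa3 had 1 probe each, Sox5 and Foxa2 had 2 each, and Trps1 had 3. All 11 probes were well above background on all 6 arrays, so all 11 passed the filter that kept probes above background on at least 3 arrays.

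SOX9 binds DNA through an HMG box and switches on the genes of the cartilage matrix, among them those of type II collagen and aggrecan. SOX5 and SOX6, which lack a transactivation domain of their own, bind beside SOX9 and strengthen its action. NKX3-2 is a repressor that keeps chondrocytes immature, and TRPS1, a repressor with a GATA-type zinc finger, is altered in tricho-rhino-phalangeal syndrome and sets the pace of growth plate maturation. FOXA2 and FOXA3 are forkhead factors that promote the hypertrophic stage, in which chondrocytes enlarge and lay down type X collagen. The comparison asks whether deletion of Adam10, a protease that sheds cell surface proteins and cleaves Notch receptors, goes with a change in this set.

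Members differed between mutant and control cartilage by at most 0.36 on the log2 scale, and 0 of the 11 probes passed an adjusted p of 0.05 in the limma fit across all probes, where 0% of probes were called higher and 0% lower. At an unadjusted p below 0.05, 1 member probe was higher (a Trps1 probe), where 1.66% of all probes were, and 0 were lower, where 1.78% of all were (3.44% in either direction). Differences above 0.3 were seen for 2 Trps1 probes, Sox9 and Foxa3, and 1 of the Sox5 probes had the only difference below 0. In all, 10 of 11 member probes had a difference above 0, as did 60.2% of all probes. Taking for each gene the probe with the brightest mean signal, 6 of 7 genes were above 0 and their median difference was 0.18, beside 60.5% and a median of 0.04 over the 15658 genes with a symbol. The median of the 7 genes was 0.08 without mutant 2, 0.29 without mutant 3, 0.0026 without both mutant 2 and control 1, and 0.06 with array weights. Here and below, levels are log2 signals relative to the 75th percentile of the array, and differences are mutant minus control. Levels of different probes cannot be set against each other.

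Whole-array values bear on these results in a few ways. Adam10 read 0.15, -1.70 and 0.31 on mutants 1 to 3, against 1.61, 1.58 and 1.21 on controls 1 to 3, so every mutant was below every control (difference -1.88, SE 0.53, limma adjusted p 0.995). Without mutant 2 the Adam10 difference was -1.24. The floxed part of the gene is not named in the labels, so whether the probe lies within it is unknown. The share of spots above background ran from 62.4% to 65.4% over the arrays, with 0 saturated. All 12 defining chondrocyte markers were above background on all arrays. Mutant 2 and control 1 lay at opposite ends of the first principal component, at 81.8 and -63.4, with the other 4 arrays between -18.7 and 18.2. On the slide, the first row held mutant 1 and the 3 controls and the second row held mutants 2 and 3. Xist was above the Y-linked gene Ddx3y on mutant 3 and control 1, and below it on the other arrays.

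**Figure D1:**
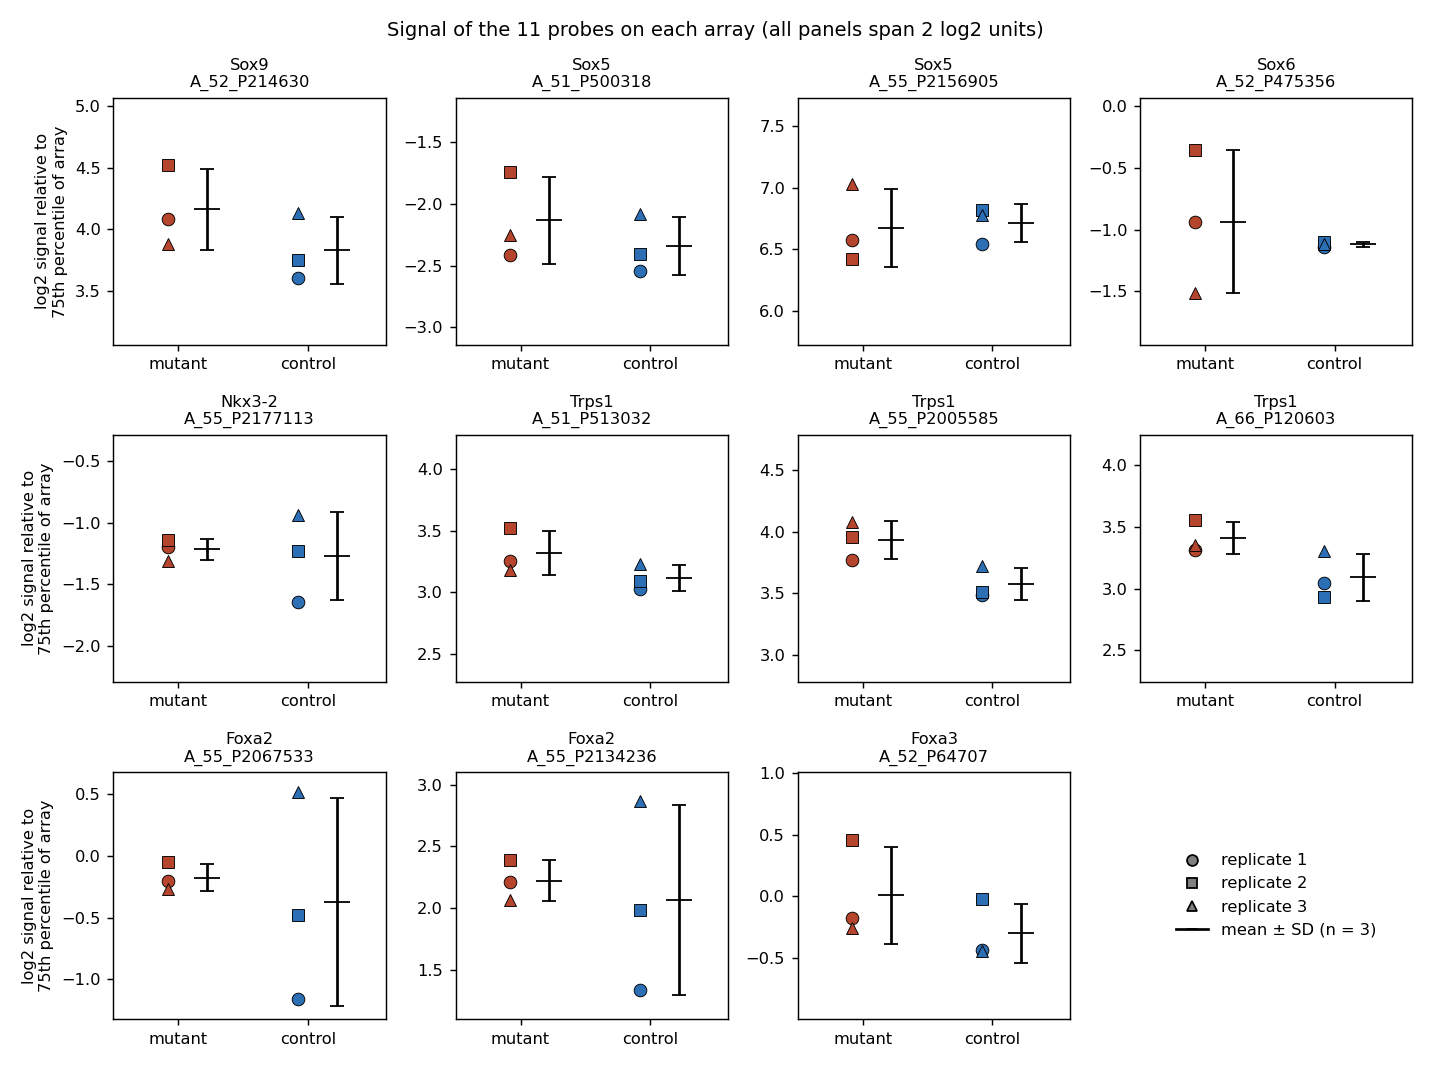
Log2 signal of each of the 11 probes, relative to the 75th percentile of the array, on the 3 mutant arrays (left in each panel) and the 3 control arrays (right), with marker shapes for the replicate and bars for the mean ± SD (n = 3). Mutants lie above controls without overlap for 2 of the 3 Trps1 probes, the Foxa2 probes are spread widely in controls, and Sox6 is spread widely in mutants.

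Sox9 is the factor without which cartilage does not form. Its probe was printed 10 times on each array. Its log2 signal was 4.08, 4.52 and 3.88 on mutants 1 to 3, against 3.61, 3.75 and 4.13 on controls 1 to 3. The groups overlapped, since control 3 exceeded mutants 1 and 3. The means were 4.16 ± 0.33 (SD, n = 3) in mutants and 3.83 ± 0.27 (SD, n = 3) in controls. The difference was 0.33 (SE 0.22, limma adjusted p 0.995), or 1.26-fold, with a 95% interval from 0.87-fold to 1.82-fold. Leaving out mutant 2 gave 0.15 and leaving out control 1 gave 0.22, while omission of both arrays gave 0.04.

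The repeated Sox9 spots give the error within an array. Mean intensities were 10690, 13740 and 7531 units on mutants 1 to 3, against 7215, 7490 and 8968 units on controls 1 to 3. The coefficient of variation among the spots of an array lay between 1.82% and 3.9%. Spots marked as outliers were left out of it, 2 of 10 on each of mutant 2, control 1 and control 2. The brightest and dimmest arrays were 1.89-fold apart after scaling, and arrays within a group differed by up to 1.56-fold among mutants and 1.44-fold among controls. Each mouse was read on 1 array, so spread between mice and spread between arrays cannot be told apart.

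**Figure D2:**
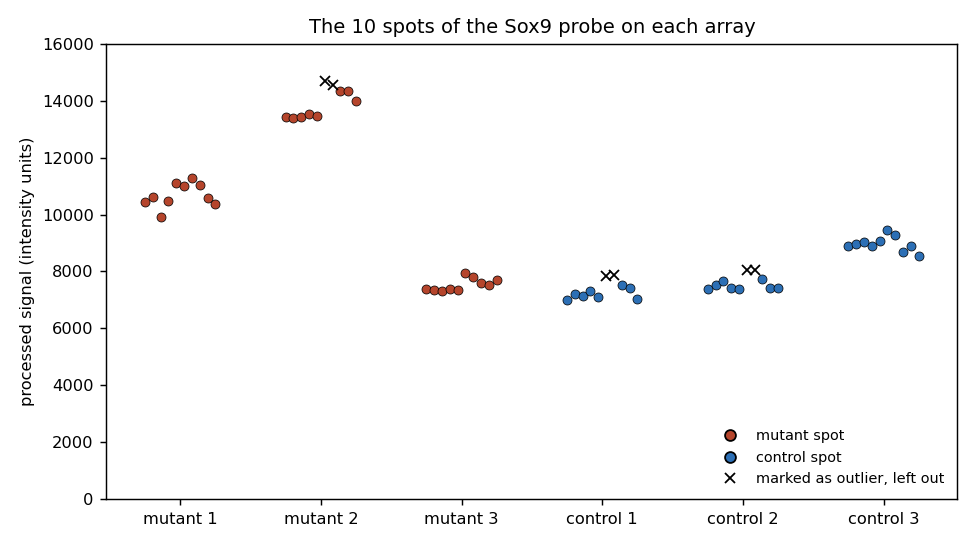
Processed signal in intensity units, before scaling between arrays, of the 10 spots of the Sox9 probe on each mutant (left) and control (right) array. Crosses are spots that Feature Extraction marked as outliers, which were left out, and spots of 1 array lie close together while mutant 2 stands above the other arrays.

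Sox5 was read by 2 probes that did not behave alike. The dimmer probe, A_51_P500318, read -2.41, -1.74 and -2.25 on mutants 1 to 3, against -2.54, -2.40 and -2.08 on controls 1 to 3. Mutant 2 was highest and control 1 lowest, as for Sox9, and the groups overlapped. The difference was 0.21 (SE 0.22, limma adjusted p 0.995), and leaving out mutant 2 or control 1 gave 0.01 or 0.11, leaving out mutant 1 or control 3 gave 0.35 or 0.34, and the first row of the slide alone gave -0.07. The brighter probe, A_55_P2156905, read 6.57, 6.42 and 7.03 on mutants 1 to 3, against 6.54, 6.82 and 6.78 on controls 1 to 3. Here mutant 2 was the lowest array and mutant 3 the highest. Its difference of -0.04 (SE 0.19, limma adjusted p 0.995) had a 95% interval from -0.50 to 0.42 and turned above 0 when mutant 1, mutant 2 or control 2 was left out (0.0143, 0.0892 and 0.0174). After each probe's mean was subtracted, the Sox5 probes differed from each other by a root mean square of 0.37 over the 6 arrays. The dimmer Sox5 probe differed from Sox9 by 0.12 and the brighter by 0.42. Trps1 probes A_51_P513032 and A_66_P120603 each differed from Sox9 by 0.15. Both probes carry the same RefSeq accession, so the files do not show whether they read different transcripts, and the direction of Sox5 is uncertain.

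Sox6, like Sox5 a member of the SOXD group, had the widest spread in mutants. Its signal was -0.94, -0.35 and -1.51 on mutants 1 to 3, against -1.14, -1.10 and -1.12 on controls 1 to 3. Controls lay within 1.02-fold of each other, whereas mutants spanned 2.24-fold, with mutant 2 the highest and mutant 3 the lowest of all arrays. The means were -0.94 ± 0.58 (SD, n = 3) in mutants and -1.12 ± 0.02 (SD, n = 3) in controls. The difference of 0.18 (SE 0.28, limma adjusted p 0.995) had a 95% interval from -0.50 to 0.87. It turned to -0.11 without mutant 2 and to -0.12 without both mutant 2 and control 1, and was 0.47 without mutant 3. Whether the groups differ in spread was not tested.

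The promoters of Sox5 and Sox6 are shown because SOX proteins recognise a short core that can be looked for there. The sequence table of RefSeq (build GRCm38.p6) held promoters for 5 of the 7 genes, in 12 windows, of which 6 belong to Sox6, 3 to Foxa2 and 1 each to Sox5, Nkx3-2 and Foxa3. In the 250 bases before each listed start, the cores ACAATG and ACAAAG, which differ only at the fifth letter, were searched on both strands. ACAATG was present in 3 of 12 member windows, or 25%, against 3512 of all 32851 windows, and ACAAAG in 6 of 12, or 50%, against 16.5%. Either core was found in 7 of 12 windows, against 25.2% of all. These windows are not independent, as 6 of them lie in 1 gene. The 3 windows with ACAATG are printed 5′ to 3′ on the minus strand of the genome, with matches to either core in capitals. They are Sox5 at chr6:143947107-143947356, Sox6 window A at chr7:115995087-115995336 and Sox6 window B at chr7:115824711-115824960. The matches do not overlap each other.
Sox5: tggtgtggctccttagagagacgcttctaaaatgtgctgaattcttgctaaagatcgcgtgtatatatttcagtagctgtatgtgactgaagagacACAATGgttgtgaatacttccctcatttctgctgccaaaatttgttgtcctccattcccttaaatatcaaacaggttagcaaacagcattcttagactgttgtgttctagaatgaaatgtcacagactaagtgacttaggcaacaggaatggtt
Sox6 window A: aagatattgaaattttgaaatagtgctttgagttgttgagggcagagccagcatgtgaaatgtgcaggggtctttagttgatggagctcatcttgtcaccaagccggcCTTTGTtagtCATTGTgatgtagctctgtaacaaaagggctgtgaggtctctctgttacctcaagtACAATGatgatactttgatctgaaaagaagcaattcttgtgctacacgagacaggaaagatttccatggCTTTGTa
Sox6 window B: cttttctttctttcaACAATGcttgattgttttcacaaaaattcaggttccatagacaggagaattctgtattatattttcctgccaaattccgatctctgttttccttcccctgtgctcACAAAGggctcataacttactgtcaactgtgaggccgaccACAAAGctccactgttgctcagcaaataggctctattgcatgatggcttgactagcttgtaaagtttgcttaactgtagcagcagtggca
A match is a description of these letters and not a binding site. Sox5 had 1 ACAATG match, Sox6 window A had 2 matches of each core, and Sox6 window B had 1 ACAATG and 2 ACAAAG matches. Among the cartilage targets of the trio listed below, 3 of 26 windows held either core, or 11.5%, and absence from these windows says nothing of enhancers elsewhere.

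Nkx3-2, the repressor of chondrocyte maturation, hardly differed in mean. It read -1.20, -1.14 and -1.31 on mutants 1 to 3, against -1.64, -1.23 and -0.94 on controls 1 to 3. All mutants lay inside the range of the controls, which spanned 1.63-fold where mutants spanned 1.12-fold. The difference was 0.06 (SE 0.20, limma adjusted p 0.995), with a 95% interval from -0.41 to 0.53. Its direction turned when control 1 was left out (-0.13), and omission of control 3, mutant 3 or mutant 2 gave 0.22, 0.10 or 0.02. With both mutant 2 and control 1 omitted it was -0.17.

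Trps1 had the largest difference of the set, and its 3 probes all pointed the same way. Probe A_55_P2005585 read 3.77, 3.96 and 4.08 on mutants 1 to 3, against 3.49, 3.52 and 3.72 on controls 1 to 3. Every mutant was above every control, by a narrow margin between mutant 1 and control 3. Its means were 3.93 ± 0.16 (SD, n = 3) in mutants and 3.57 ± 0.13 (SD, n = 3) in controls, a difference of 0.36 (SE 0.14), or 1.28-fold with a 95% interval from 1.02-fold to 1.62-fold. An exact two-sided permutation test gave p = 0.1, and no split of 3 against 3 can give less. In limma the unadjusted p was 0.0400 and the adjusted p 0.995.

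The other Trps1 probes gave smaller differences. Probe A_66_P120603 read 3.31, 3.56 and 3.36 on mutants 1 to 3, against 3.04, 2.93 and 3.30 on controls 1 to 3, a difference of 0.32 (SE 0.15) with the groups again apart. Probe A_51_P513032 read 3.26, 3.52 and 3.19 on mutants 1 to 3, against 3.03, 3.09 and 3.23 on controls 1 to 3, a difference of 0.20 (SE 0.14). On that probe mutant 3 lay just below control 3, so the groups overlapped. Groups did not overlap, with mutants higher, for 2 of the 11 member probes, where 5.28% of all probes showed this, and 0 member probes had mutants lower, where 3.51% of all did (8.79% in either direction). The 2 probes read the same gene in the same RNA. Probe A_55_P2005585 kept a difference above 0 when each array was left out in turn (0.29 to 0.44), and gave 0.31 without mutant 2 and control 1 and 0.19 within the first row of the slide. Without mutant 2 and control 1, probe A_66_P120603 gave 0.22 and probe A_51_P513032 gave 0.06, and the last was 0.10 without mutant 2 alone.

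Foxa2, which promotes the hypertrophic stage, stood out by its spread among controls. Probe A_55_P2134236 read 2.21, 2.39 and 2.07 on mutants 1 to 3, against 1.33, 1.99 and 2.87 on controls 1 to 3. Probe A_55_P2067533 read -0.20, -0.05 and -0.27 on mutants 1 to 3, against -1.16, -0.48 and 0.52 on controls 1 to 3. On both probes all mutants lay between control 2 and control 3. Controls spanned 2.90-fold and 3.20-fold on these probes and mutants 1.25-fold and 1.16-fold. Both probes gave nearly the same profile, a root mean square of 0.06 apart after centring, so both probes read the same spread among controls. The differences were 0.16 (SE 0.37) and 0.20 (SE 0.40), limma adjusted p 0.995 for both, and the 95% interval of the first ran from -0.73 to 1.05. Without control 1 they turned to -0.21 and -0.20, and without control 3 they were 0.56 and 0.64, and without mutant 2 the first was 0.08. Without both mutant 2 and control 1 they were -0.29 and -0.26. The difference in spread between groups was not tested.

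Foxa3, which acts with Foxa2 in hypertrophic chondrocytes, read -0.18, 0.46 and -0.26 on mutants 1 to 3, against -0.43, -0.02 and -0.45 on controls 1 to 3. Mutant 2 was highest, and control 2 exceeded mutants 1 and 3. The means were 0.01 ± 0.39 (SD, n = 3) in mutants and -0.30 ± 0.24 (SD, n = 3) in controls, a difference of 0.31 (SE 0.23, limma adjusted p 0.995) with a 95% interval from -0.25 to 0.87. Leaving out mutant 2 gave 0.08, the first row of the slide alone 0.13, array weights 0.0039, and omission of mutant 2 and control 1 together 0.02.

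**Figure D3:**
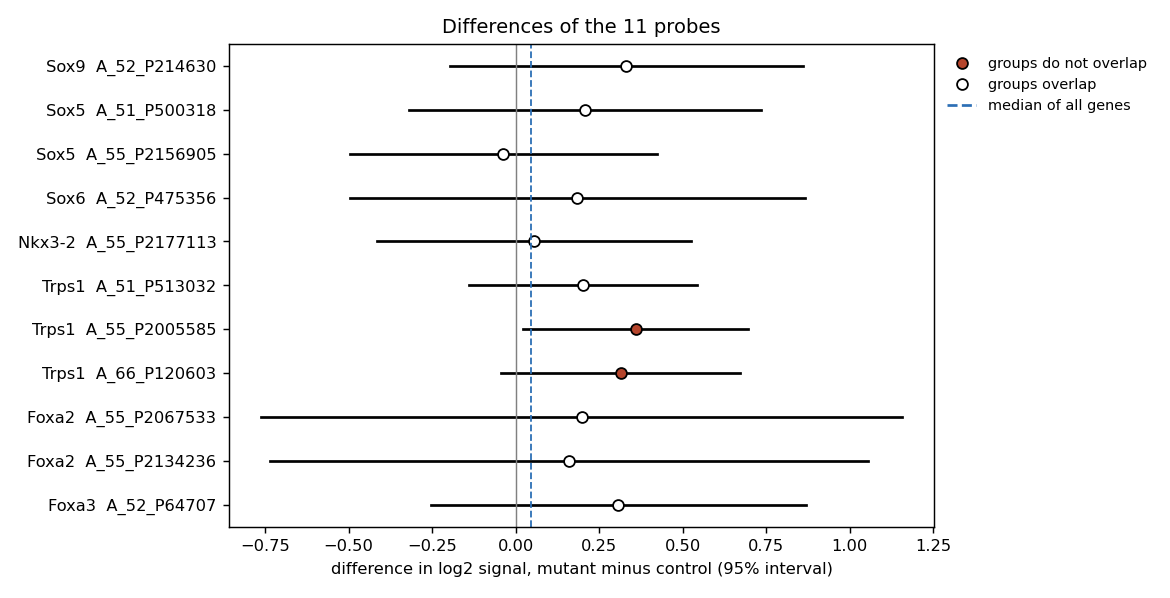
Difference in log2 signal, mutant minus control, for each of the 11 probes, with 95% intervals from the limma fit, filled points where the groups do not overlap and the median of all genes as a dashed line. The interval of 1 probe, Trps1 A_55_P2005585, lies above 0, and all 11 adjusted p-values are 0.995.

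Single mice weighed on several members in the same direction. Of the 11 probes, 6 were highest on mutant 2 and 7 were lowest on control 1. With 1 probe for each of the 7 genes, mutant 2 was highest for 3 and lowest for 1, and control 1 was lowest for 4. The share of all probes with these ends is not given here. Mutant 2 and control 1 were also the ends of the range for the 12 defining chondrocyte markers, whose mean log2 signal after centring was -0.03, 0.40 and 0.00 on mutants 1 to 3, against -0.36, -0.05 and 0.03 on controls 1 to 3. Their summed signal, in units of the array's 75th percentile, ran from 3440 to 4429 in mutants and from 3097 to 3754 in controls. When each array was scaled to these markers instead, an alternative chosen after the data were seen, the median difference of all probes moved to -0.21, the 7 genes had a median of -0.07, and 0 member probes had groups apart. All 12 markers are also in the list of cartilage targets of the trio below, so this scale is not independent of those genes. On that scale Sox9 differed by 0.08 (SE 0.16) and Trps1 probe A_55_P2005585 by 0.11 (SE 0.19).

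On mutant 2, where the chondrocyte markers were highest, markers of most other cell types of the tibia were low. The other arrays were mixed. On control 1, lowest for chondrocyte markers, neutrophil, erythroid and muscle markers were highest. Osteoblast markers had a mean centred log2 signal of -0.24 on control 1, against 0.47 on control 3. Osteoclast markers, 10 of 10 tested, summed to between 35.1 and 165.1 in mutants and between 240.7 and 329.8 in controls. Macrophage markers, 9 of 11 tested with Cd163 not above background on any array and Cd68 not matched, summed to between 7.95 and 27.6 in mutants and between 30.3 and 38.6 in controls. Mutant 2 was lowest for both lists, and likewise for osteoblast (10 of 11 tested), endothelial (11 of 11), muscle (11 of 11) and adipocyte (7 of 8) markers, by the sum and by the mean centred log2 signal. For erythroid (10 of 11) and B lymphocyte (8 of 10) markers mutant 2 had the lowest sum, but mutant 1 and control 3 were lower by the mean centred log2 signal. Neutrophil markers, 9 of 11 tested, ran from 11.8 to 27.4 in mutants and from 14.8 to 161.8 in controls, with control 1 highest. Tendon and articular surface markers, 8 of 8 tested, ran from 63.9 to 78.8 in mutants and from 71.3 to 126.1 in controls. In bulk tissue, fewer cells of a type and less RNA per cell cannot be told apart, and the part of these shifts in the differences of the transcription factors was not tested.

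**Figure D4:**
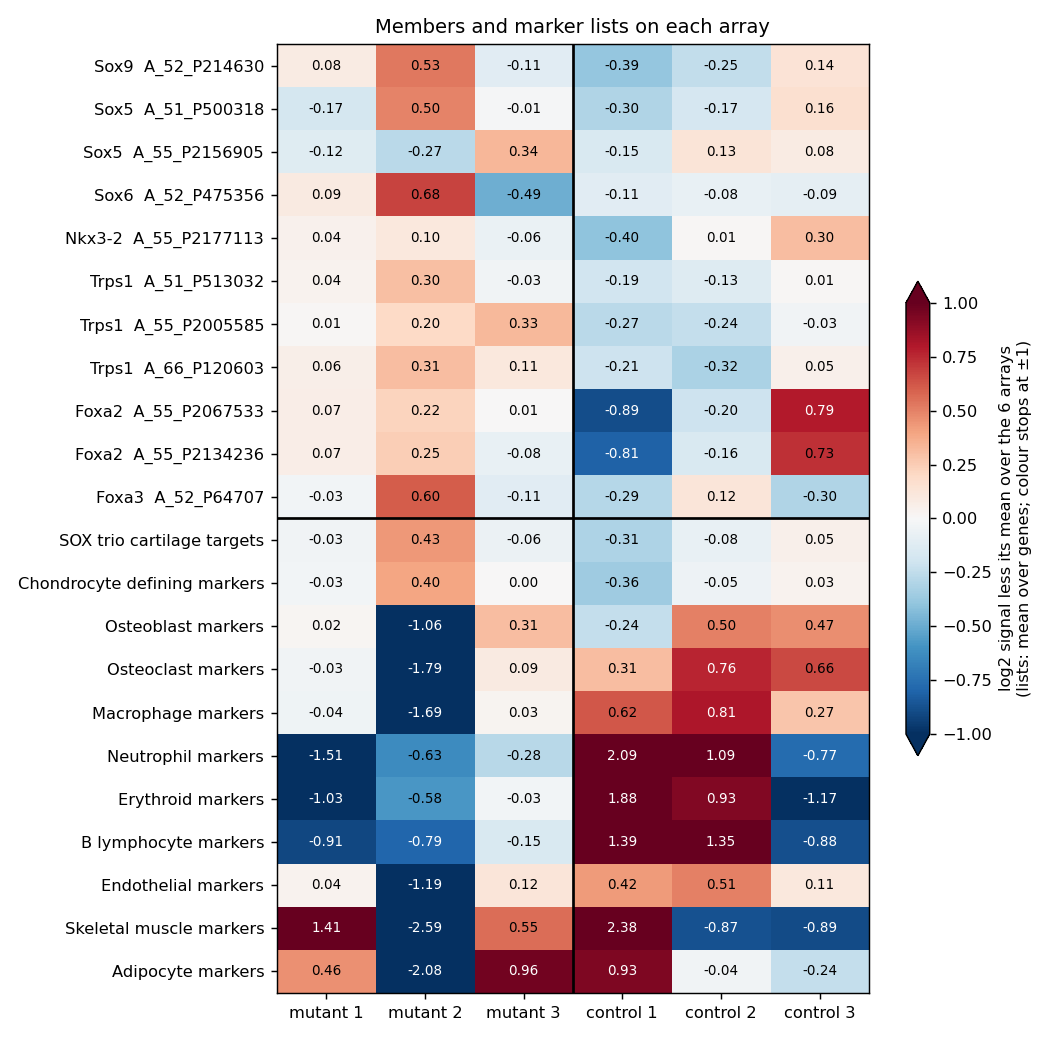
Log2 signal less its mean over the 6 arrays for each member probe (above the line) and the mean of the same over each gene list (below the line), on mutants 1 to 3 (left) and controls 1 to 3 (right), with red for above and blue for below the mean and the colour stopped at 1. On mutant 2 the Sox9, Sox6 and Foxa3 probes and the chondrocyte markers are high and the markers of osteoclasts, macrophages and endothelium are low.

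The cartilage genes that the trio is known to activate were 27 in the list, all tested. Of these, 25 had a difference above 0, where 60.5% of all genes did, and the median was 0.25, beside 0.04 for all genes. At an adjusted p below 0.05, 0 were called, where 0% of all genes were. At an unadjusted p below 0.05, 0 were higher and 0 lower in the limma fit, where 1.3% and 2.17% of genes were. With normexp correction and quantile normalization 4 of the 27 were higher. Of all 35228 probes, 1322 had an unadjusted p below 0.05 in either direction there. Matn3 (matrilin 3) differed by 0.36 (SE 0.20), Acan (the aggrecan core protein) by 0.36 (SE 0.20), Col27a1 (a fibrillar collagen of cartilage) by 0.34 (SE 0.18) and Col11a1 (which nucleates type II collagen fibrils) by 0.33 (SE 0.16). Groups were apart for Matn3 and Col11a1, 2 of the 27 genes, where 9.74% of all genes had groups apart in either direction. Col2a1, which supplies the promoter of the Cre, read 9.85, 9.96 and 10.09 on mutants 1 to 3, against 9.96, 10.05 and 10.10 on controls 1 to 3, a difference of -0.07 (SE 0.12). The summed signal of the list, which holds all 12 defining chondrocyte markers, was highest on mutant 2 and lowest on control 1. Sox9 and the dimmer Sox5 probe had the same ends, and the brighter Sox5 probe did not. Without mutant 2 and control 1, Matn3 was at 0.07, Acan at 0.05, Col27a1 at 0.09 and Col11a1 at 0.14. Without mutant 2 the list's median was 0.10, and without both mutant 2 and control 1 it was -0.01.

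**Figure D5:**
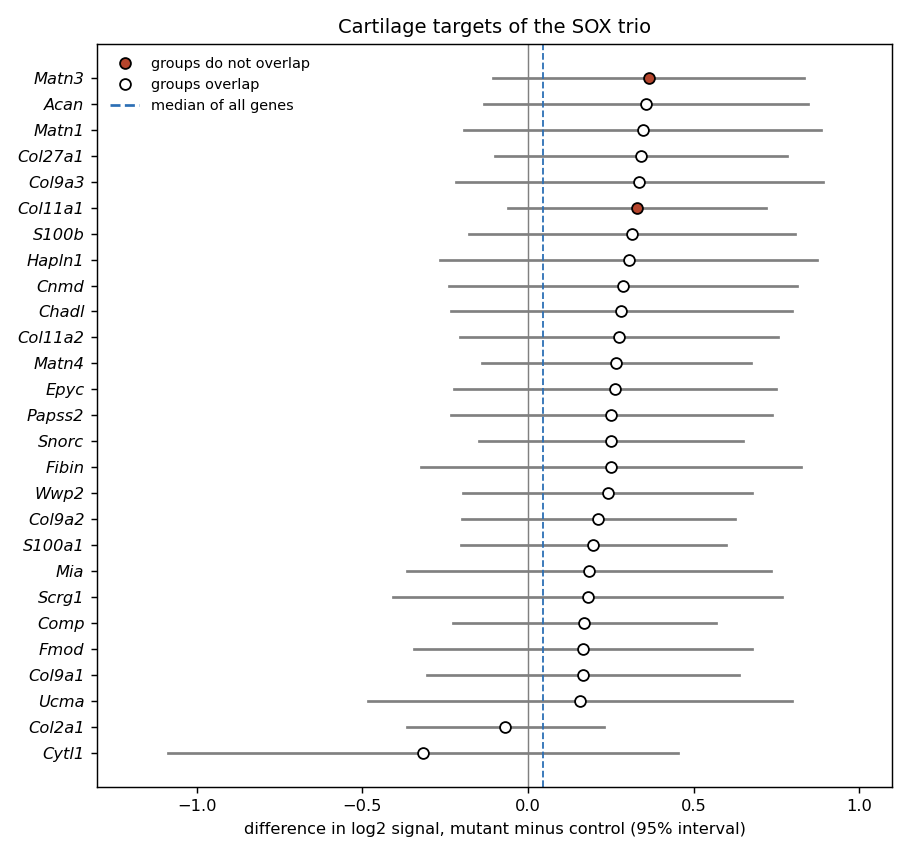
Difference in log2 signal, mutant minus control, with 95% intervals from the limma fit, for the 27 cartilage genes activated by the SOX trio, ordered by size, with the median of all genes as a dashed line. All genes but Col2a1 and Cytl1 lie above 0, every interval includes 0, and the groups do not overlap for Matn3 and Col11a1.

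Hypertrophic genes, which FOXA2 and FOXA3 promote, had 12 of 19 tested members above 0 and a median of 0.11, with 0 called at an adjusted p below 0.05. At an unadjusted p below 0.05, 1 was higher and 1 lower, where 1.3% and 2.17% of all genes were. With the replicate number as a block 0 were higher. With normexp correction 2 were higher, both after percentile scaling and after quantile normalization. Of all 35228 probes, 1099 and 1322 had an unadjusted p below 0.05 in either direction in these settings. Vegfa, the vessel growth factor made by hypertrophic cells, differed by 0.67 (SE 0.24) with groups apart, and Slc37a2, a sugar-phosphate transporter that osteoclasts also express, by -0.85 (SE 0.33). Mef2c, a transcription factor of hypertrophy, differed by 0.43 (SE 0.20), and Panx3, a channel protein of hypertrophic cells, by 0.31 (SE 0.20). Col10a1, the gene of type X collagen, differed by 0.25 (SE 0.21). Mmp13 and Ibsp, which osteoblasts also make, differed by -0.98 (SE 0.68) and -0.90 (SE 0.68). Without mutant 2 the differences were -0.20 for Mmp13, -0.21 for Ibsp and 0.40 for Vegfa. Without control 1 they were -1.33 for Mmp13, -1.38 for Ibsp and 0.13 for Panx3. Without both arrays Mmp13 was at -0.55, Ibsp at -0.69, Col10a1 at 0.02, Vegfa at 0.43 and Slc37a2 at -0.90. The median of the list turned to -0.03 without control 1.

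Among relatives of the members, the SOXE genes Sox8 and Sox10 differed by 0.40 (SE 0.31) and 0.39 (SE 0.24), and Sox13, the third SOXD gene, by -0.03 (SE 0.13). The SOXF genes of endothelium had differences below 0: Sox7 at -0.55 (SE 0.34), Sox17 at -0.65 (SE 0.42) and Sox18 at -0.70 (SE 0.34). Mutant 2 was the lowest array for all 3, and without it they were at -0.22, -0.16 and -0.30, while Sox8 was at 0.09 and Sox10 at 0.24. Sox18 was lower on every mutant than on every control, narrowly so for mutant 3 at -0.23 and control 3 at -0.19. Endothelial markers summed to between 28.0 and 63.5 in mutants and between 53.0 and 67.9 in controls. Sox21 differed by 0.23 (SE 0.13) and was higher on every mutant than on every control, narrowly so for mutant 3 at -2.23 and control 3 at -2.28. Groups were thus apart for 1 tested SOX gene in each direction, where 9.74% of all genes were apart in either direction. Of 17 other SOX genes on the array, 12 were tested, 7 of them above 0 and 5 below, with a median of 0.02, and 0 had an unadjusted p below 0.05 in limma, where 1.3% of all genes were higher and 2.17% lower. With array weights 3 were higher, where 4622 of all 35228 probes had an unadjusted p below 0.05 in either direction. With normexp correction and quantile normalization 1 was higher, where 1322 probes were below 0.05. Sox2, Sox14, Sox15 and Sox30, as well as Foxa1, were above background on 0 arrays.

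Other transcription factors of chondrocytes had 17 of 36 tested members above 0 and a median of -0.02, which turned above 0 when control 1, control 2 or any 1 mutant was left out (0.0016 to 0.0727). In limma 0 had an unadjusted or adjusted p below 0.05, where 1.3% of all genes were higher and 2.17% lower at the unadjusted threshold. With normexp correction, 3 were higher after quantile normalization and 2 after percentile scaling. Of all 35228 probes, 1322 and 1099 had an unadjusted p below 0.05 in either direction in these settings. Besides Mef2c, the members with the smallest p were Lef1, Zbtb20 and Arid5a. Lef1 (a Wnt effector) was at 0.29 (SE 0.14) and Zbtb20 (a transcriptional repressor made in hypertrophic chondrocytes) at 0.39 (SE 0.21). Arid5a (a partner of SOX9) was at -0.57 (SE 0.32). Arid5a was at -0.19 without mutant 2, and Zbtb20 at 0.21 without control 1. Partners and modifiers of SOX9 had 11 of 16 members above 0 and a median of 0.07. The Mediator subunit Med12 differed by 0.34 (SE 0.13) with groups apart and was the 1 member higher at an unadjusted p below 0.05, where 1.3% of all genes were. With the replicate number as a block 0 were, and without mutant 2 and control 1 Med12 was at 0.25. Prkg2, a kinase that restrains SOX9, differed by 0.30 (SE 0.20), Wwp2, a ubiquitin ligase whose gene SOX9 activates, by 0.24 (SE 0.18) and Kpnb1, the importin beta that carries SOX9 into the nucleus, by -0.16 (SE 0.11). Every mutant was below every control for Kpnb1, and 2 of 16 members thus had groups apart, where 9.74% of all genes did. Without mutant 2, Prkg2 was at 0.15 and Wwp2 at 0.09. No gene of these lists was called at an adjusted p below 0.05.

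The genes most like each member over the 6 arrays were found by the root mean square distance between centred log2 signals, among 13893 genes above background on all arrays. The nearest to Sox9 were Inka2 at 0.05, Taf1a at 0.06 and Iqcb1 at 0.06, where the median gene lay 0.29 away. For the brighter Sox5 probe they were Vps13a at 0.02, Haao at 0.03 and Farp2 at 0.05, and for Sox6 they were Usp37, Itm2a and Capn6, each at 0.06. Nkx3-2 was nearest to Mfge8 at 0.03, Taf8 at 0.04 and Rpl34-ps1 at 0.05. Genes near Trps1 included Msantd1 at 0.05 and Klkb1 at 0.05. Foxa2 had more distant neighbours, Serpina3m at 0.12, Sh3gl3 at 0.13 and Klf15 at 0.14, where the median gene lay 0.46 away. Foxa3 was nearest to Serpini1 at 0.07, Cds1 at 0.07 and Cdkn1c at 0.08. With 6 arrays and so many genes, close neighbours arise for any profile, and these are descriptions only.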

How the data were processed

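RNA from tibial cartilage was hybridised to Agilent 1-colour arrays, with groups and replicate numbers taken from the labels. The authors deposited, for each spot, a background-subtracted processed signal and raw median brightness, both linear intensity values that were not normalized between arrays. Per the file headers, they come from Agilent Feature Extraction 10.7.1.1. Per the file headers, the design refers to mm9. The authors' deposited value table is a ratio to the array's 75th percentile, as read from the values. Its column medians lay between 0.095 and 0.105 over the probes matched here, its correlation with the processed signal was 1 on every array, and how it was made is not given in the sources used here. The deposited flags for background, outliers and saturation, coded 0 or 1, were used as filters.

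Of 55681 probes, 27656 were matched by accession to a symbol in RefSeq's GRCm38.p6 table. After a log2 transform of the deposited processed signal, each array's 75th percentile over non-control spots was subtracted, outlier spots were left out and repeated spots were averaged. Probes well above background on at least 3 of 6 arrays were tested, 35228 after 8 without a usable spot on some array were set aside. The comparison used limma 3.58.1 (R 4.3.3, two-sided, Benjamini-Hochberg adjustment over all these probes, threshold 0.05, 4 residual and 2.52 prior degrees of freedom). The fit was tested on simulated data. Lists used the probe with the highest mean signal per gene.

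The members, lists, tests and alternatives were chosen with earlier results of these data known. Named genes are the members, Adam10, Col2a1, the 4 genes with the smallest p in each list, the relatives of the members and the 3 genes nearest to each member. Of these, 1 relative and 1 nearest gene are not reported here. Mmp13, Ibsp, Col10a1, Sox17 and Cytl1 were named after their values were seen. Correlations of the deviations of same-numbered mice were 0.175, 0.054 and -0.153 for replicates 1 to 3. With 3 arrays in each group, these values cannot show whether same-numbered animals were paired, and the main fit did not pair them. Precision is limited by the number of arrays.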

Additional observations from a re-analysis of the deposited data

How the results depend on the processing

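Over 23 alternatives, 0 probes of the whole table and 0 genes of the pathway lists passed an adjusted p of 0.05. The differences of Sox9, Foxa3 and Trps1 probes A_55_P2005585 and A_66_P120603 stayed above 0 in each alternative that gave them a value. With normexp background correction and percentile scaling Nkx3-2 turned to -0.0081, and with array weights to -0.0144. Y-linked signal was above Xist on 4 arrays, mutants 1 and 2 and controls 2 and 3. On these arrays Nkx3-2 was -0.0833 and the Foxa2 probes A_55_P2067533 and A_55_P2134236 were -0.1495 and -0.1277. The dimmer Sox5 probe was -0.0684 within the first slide row and with the row as a block. These 2 settings give the same differences, since the second row held no control and both rest on mutant 1 against the 3 controls. Scaled to chondrocyte markers, it was -0.0422, Sox6 -0.0654, Nkx3-2 -0.1940, Trps1 probe A_51_P513032 -0.0476 and the Foxa2 probes -0.0519 and -0.0901, and the median of the 7 genes was -0.0654. Without both control 1 and mutant 2, the Sox5 probes were -0.0889 and 0.0026, Sox6 -0.1165, Nkx3-2 -0.1673, the Foxa2 probes -0.2569 and -0.2897, and the median 0.0026. The cause of these turns was not tested.

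When single arrays were left out, values ran from -0.2139 to 0.0892 for the brighter Sox5 probe, from -0.1071 to 0.4734 for Sox6, from -0.1296 to 0.2223 for Nkx3-2, and from -0.1958 to 0.6439 and from -0.2057 to 0.5632 for the Foxa2 probes. Member probes with groups apart numbered 1 with 1 probe a gene, where 2281 of all 25494 probes were apart. They numbered 5 on the arrays with Y-linked signal, where 13283 of all 35228 probes were apart. Within the first slide row they numbered 4, where 13750 of all probes were apart. With single arrays left out they numbered 2 to 6, where 5061 to 7372 of all probes were apart. Fewer arrays make separation easier. Scaled to chondrocyte markers, 0 member probes had groups apart, and the count over all probes is not given here. With the replicate number as a block, the Sox9 difference was 0.33 (adjusted p 0.994), and no call at an adjusted p changed. At an unadjusted p below 0.05, the 1 higher gene among the hypertrophic genes and the 1 among the SOX9 partners each became 0 under this block. The number of probes at an unadjusted p below 0.05 was 1213, and it ran from 661 with the slide row as a block to 4622 with array weights. No member value was limited by background, since all 11 probes were above it on all arrays.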
